A study of Arabidopsis thaliana with 23 samples.

Results

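The GH3 auxin-conjugating enzymes described here are 4 genes of Arabidopsis thaliana: GH3.3 (AT2G23170, probe set 245076_at), GH3.5 (AT4G27260, probe set 253908_at, listed under its other symbol WES1), GH3.17 (AT1G28130, probe set 259596_at) and GH3.9 (AT2G47750, probe set 266465_at). They were chosen by name from the GH3 family, with earlier results of these data known. All 4 passed the filter on low signals that left 15922 of 22746 probe sets for testing. Of 19 listed family genes, 11 had a probe set naming 1 gene.

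GH3 proteins are acyl acid amido synthetases, which activate the carboxyl group of an acid and join it to an amino acid. With the auxin indole-3-acetic acid, here IAA, as the acid, the products are amide conjugates that either store auxin or feed its breakdown. Several GH3 genes are early targets of auxin signalling, so that auxin raises the enzymes that remove it.

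Whole Col-0 seedlings, grown on agar for 6 or 7 days and in liquid for 1 day, were treated for 3 h and measured on 23 Affymetrix ATH1 arrays. Replicates 1 to 3 gave 3 arrays each of mock, IAA at 1 µM, kynurenine at 30 µM, PEO-IAA at 10 µM, and PEO-IAA at 10 µM with IAA at 1 µM. Replicates 4 and 5 gave 2 arrays each of mock, IAA at 100 nM, PPBo at 10 µM, and PPBo at 10 µM with IAA at 1 µM. Kynurenine is known as an inhibitor of the aminotransferases that start IAA synthesis from tryptophan, PPBo as an inhibitor of the YUCCA enzymes that complete it, and PEO-IAA as an antagonist that blocks the TIR1 auxin receptors. The labels do not state that replicates were grown separately. The p-values therefore rest on the spread among these arrays alone, part or all of which may be technical.

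Values are MAS5 signals, a linear intensity per probe set scaled to the same trimmed mean on every array. Changes are given as log2 of the signal plus 7.56, with the standard error (SE) from 1 limma fit of all arrays; this offset understates the change of dim genes. Each treatment was set against the mock of its own replicate numbers, and a gene was called at a Benjamini-Hochberg adjusted p below 0.05 over all tested probe sets. Statements that the arrays of 2 groups do not overlap are descriptions. The share of all tested probe sets whose arrays part in that way was not counted. The third 1 µM IAA array stood apart, with a GAPDH 3′ to 5′ probe ratio of 24.4 against 1.19 to 2.05 on the others, a ratio used as a measure of RNA integrity. Values that leave it out are given beside the results it moved most. In whole seedlings, more transcript per cell and more cells that hold the transcript cannot be told apart.

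GH3.3, which conjugates IAA to amino acids, had the widest range of the 4 genes, from 7.20 to 15254. Its signals were 194, 313 and 443 on the mock arrays and 12714, 15254 and 13866 with 1 µM IAA. In the other mock it measured 385 and 474, and 9197 and 8028 with 100 nM IAA. Every IAA array thus lay far above every mock array, and the third 1 µM IAA array was not low for this gene. The mean signal was 44.0-fold higher with 1 µM and 20.1-fold higher with 100 nM IAA. On the log2 scale GH3.3 rose by 5.50 ± 0.42 (SE; limma adjusted p = 1.94e-07, n = 3 and 3) and by 4.31 ± 0.52 (limma adjusted p = 0.000309, n = 2 and 2). Of all tested probe sets, 2.24% were called with 1 µM and 0.358% with 100 nM IAA in either direction, and GH3.3 stood in place 1 of 15922 by increase in both comparisons. The response to 1 µM exceeded that to 100 nM by 1.19 ± 0.67 (95% interval -0.20 to 2.59, limma adjusted p = 0.950), a difference that also sets arrays 1 to 3 against arrays 4 and 5. No probe set was called in that difference by limma. Of 15922 tested, 454 had an unadjusted p below 0.05, fewer than such a cutoff passes without any difference.

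The inhibitors lowered GH3.3. With kynurenine the signals were 7.20, 58.6 and 54.7, with PEO-IAA 34.5, 59.5 and 100.3, and with PPBo 10.9 and 10.9. None of these 8 arrays reached the lowest mock array of its own replicate numbers, and the first kynurenine array lay below 7.56, the 10th percentile of all deposited values. The mock mean was 7.88-fold above the kynurenine mean, 4.89-fold above the PEO-IAA mean and 39.3-fold above the PPBo mean. Both PPBo arrays and the first kynurenine array lie near that percentile, and detection calls were not used, so the sizes of these folds are uncertain. With the other pseudocounts the PPBo change on the log2 scale ran from -5.07 to -3.47. GH3.3 fell by 4.56 ± 0.52 on the log2 scale with PPBo (limma adjusted p = 0.000132), where 0.364% of tested probe sets were called. It fell by 2.97 ± 0.42 with kynurenine (limma adjusted p = 0.00895), where 0.0126% were called, that is 2 probe sets of which GH3.3 is one. With PEO-IAA it fell by 2.19 ± 0.42 (limma adjusted p = 0.0125), where 0.659% were called. Kynurenine and PEO-IAA share their mock arrays, so these values are not independent of each other. The kynurenine call was lost without mock array 2 (change -2.94, adjusted p = 0.0826) or mock array 3 (-2.69, adjusted p = 0.134), and in fits of fewer arrays. The PEO-IAA call was lost in such fits too, and without mock array 2 (-2.16, adjusted p = 0.0650), mock array 3 (-1.92, adjusted p = 0.0956), PEO-IAA array 1 (-1.85, adjusted p = 0.0946) or PEO-IAA array 2 (-2.19, adjusted p = 0.0551). These fits did not pair arrays of the same replicate number. Between same-numbered arrays GH3.3 differed from mock by -2.26, -2.26 and -2.06 with PEO-IAA, and by -3.77, -2.28 and -2.85 with kynurenine.

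**Figure D1:**
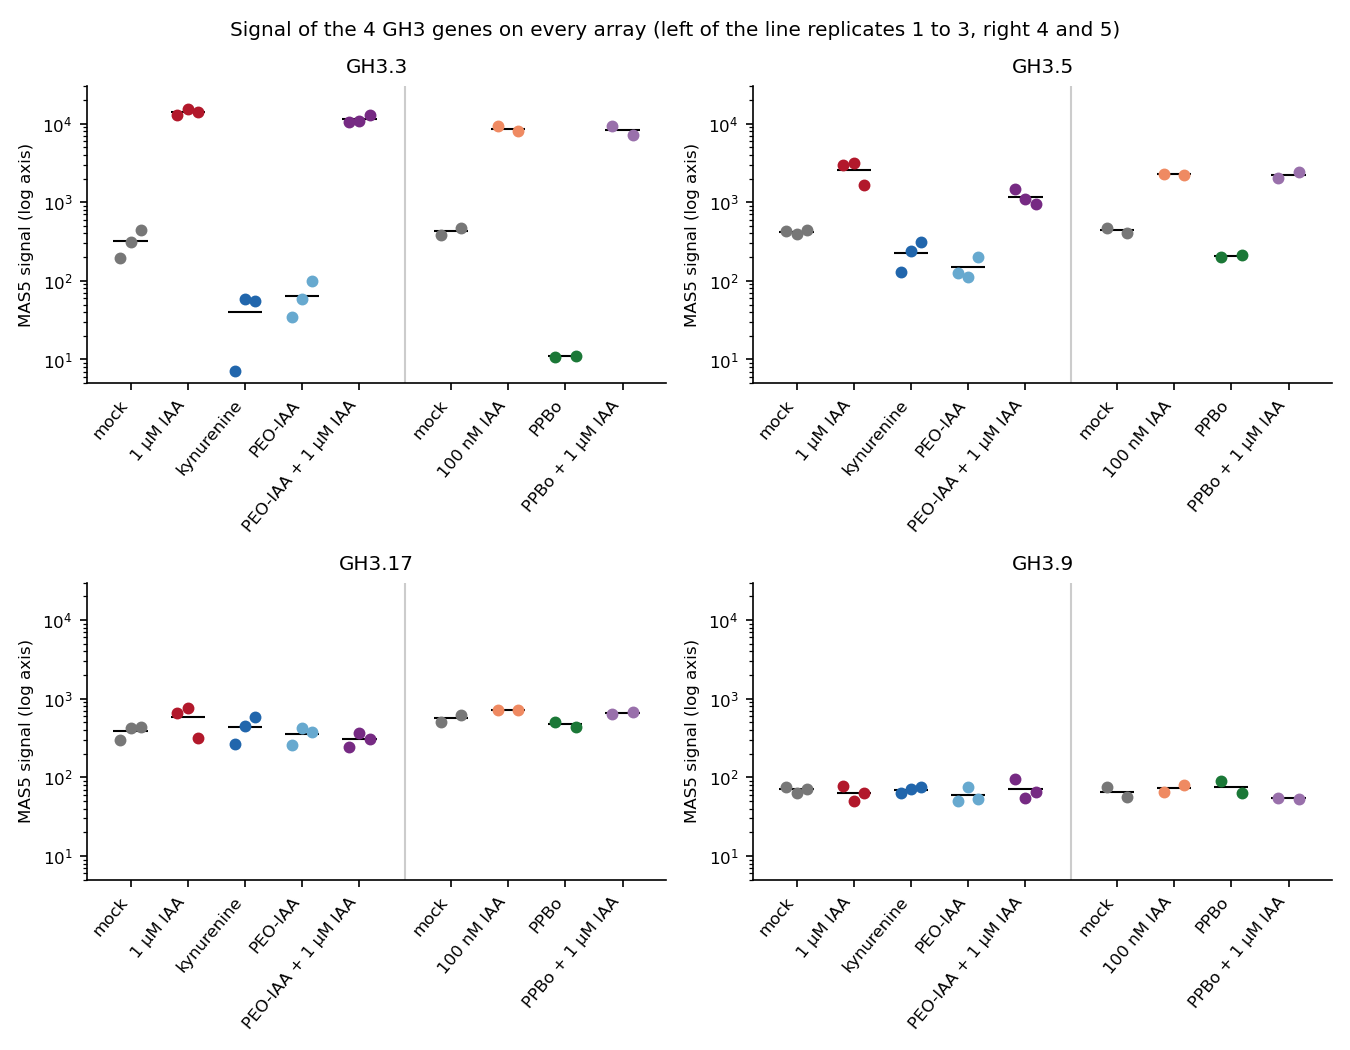
Signal of each gene on every array (points, log axis) with the group mean (black line); the grey line parts replicates 1 to 3 from replicates 4 and 5. GH3.3 spans 7.20 to 15254 and GH3.5 spans 113 to 3192, while GH3.17 stays between 240.2 and 755 and GH3.9 between 49.6 and 95.3.

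Adding IAA beside an inhibitor raised GH3.3 far above its mock level. With PEO-IAA and 1 µM IAA the arrays read 10349.9, 10679 and 12902, against 34.5 to 100.3 with PEO-IAA alone. With PPBo and 1 µM IAA they read 9332 and 7248, against 10.9 on both PPBo arrays. The groups with and without IAA did not come close to each other in either background. The increase over the inhibitor alone was 7.39 ± 0.42 on the log2 scale beside PEO-IAA (limma adjusted p = 3.41e-09) and 8.80 ± 0.52 beside PPBo (limma adjusted p = 1.12e-08). The share of tested probe sets called was 1.35% in the former and 0.653% in the latter comparison, and GH3.3 stood in place 1 by increase in both. Over mock, the double treatments raised GH3.3 by 5.19 ± 0.42 with PEO-IAA (limma adjusted p = 1.52e-06) and 4.24 ± 0.52 with PPBo (limma adjusted p = 0.000129).

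With PEO-IAA beside it, 1 µM IAA gave a GH3.3 level that differed from that of 1 µM IAA alone by -0.30 ± 0.42 (95% interval -1.19 to 0.58, limma adjusted p = 0.741); the arrays of both groups overlapped. A comparison of the PPBo double treatment with IAA alone was not made, since that replicate set holds 100 nM and not 1 µM IAA. Side by side, the means were 8290.0 ± 1473 (SD, n = 2) with PPBo and 1 µM IAA and 8613 ± 827 (SD, n = 2) with 100 nM IAA. The IAA response was larger beside PEO-IAA than alone by 1.89 ± 0.60 (95% interval 0.640 to 3.137, limma adjusted p = 0.701, not called; 0.107% of probe sets were). Beside PPBo the response to 1 µM exceeded that in the other replicate set without inhibitor by 3.301 ± 0.67 (95% interval 1.90 to 4.70, limma adjusted p = 0.725). No probe set was called in the latter difference by limma. Of 15922 tested, 797 had an unadjusted p below 0.05, about the share such a cutoff passes without any difference. GH3.3 stood in place 1 by size. GH3.3 was called there in 3 of the 10 other settings and in 1 of 23 removals of a single array. It passed the threshold in 4 alternatives, without kynurenine array 1 (adjusted p = 0.00798), with the replicate number as a block (3.301, adjusted p = 0.0247), with that block and without the third 1 µM IAA array (3.04, adjusted p = 0.0101), and with array weights (3.51, adjusted p = 0.00829).

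**Figure D2:**
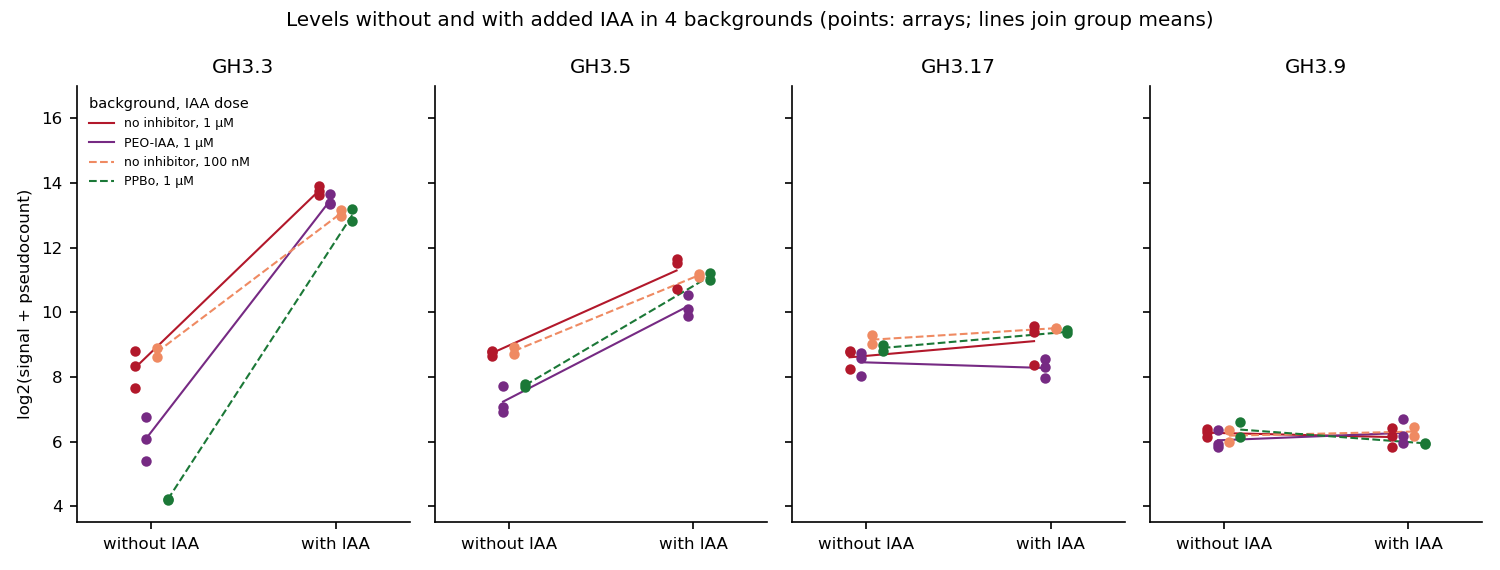
Level of each gene without and with added IAA, as log2 of the signal plus 7.56, in 4 backgrounds; points are arrays, lines join group means, and dashed lines mark replicates 4 and 5. For GH3.3 the lines start at 4.21 to 8.76 and end between 13.0 and 13.8, whereas those of GH3.9 stay between 5.95 and 6.37.

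GH3.5, also called WES1, conjugates IAA and is also known to act on salicylic acid. As with GH3.3, its lowest arrays were those with an inhibitor and its highest those with IAA, and its changes were smaller. Its signals were 429, 389.7 and 442 on the mock arrays and 2944, 3192 and 1665 with 1 µM IAA. Replicates 4 and 5 gave 475 and 407 for mock and 2312 and 2198 for 100 nM IAA. All IAA arrays were above all mock arrays, and the lowest value with 1 µM IAA came from the third array. Mean signals rose 6.19-fold with 1 µM and 5.12-fold with 100 nM IAA. The log2 changes were 2.56 ± 0.27 (limma adjusted p = 1.92e-05) and 2.34 ± 0.34 (limma adjusted p = 0.00150), and GH3.5 held place 15 and place 7 of 15922 by increase. Without the third 1 µM IAA array the first change was 2.85 ± 0.27 (adjusted p = 5.33e-06). The second was 2.23 with an adjusted p of 0.0506 without mock array 5. The response to 1 µM exceeded that to 100 nM by 0.22 ± 0.43 (95% interval -0.69 to 1.12, limma adjusted p = 0.957), and by 0.51 ± 0.40 without the third 1 µM IAA array (adjusted p = 0.9996).

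Under the inhibitors GH3.5 read 131, 242 and 311 with kynurenine, 127, 113 and 203 with PEO-IAA, and 200.2 and 214 with PPBo. These 8 arrays all lay below the mock arrays of their own replicate numbers, a description for which the share of all tested probe sets was not counted. GH3.5 fell by 1.50 ± 0.27 on the log2 scale with PEO-IAA (limma adjusted p = 0.00804), a 2.84-fold difference of the means. The call was lost without PEO-IAA array 2 (-1.34, adjusted p = 0.0626) and when only replicates 1 to 3 were fitted (adjusted p = 0.0617). Kynurenine and PPBo did not give a call, at -0.94 ± 0.27 (95% interval -1.51 to -0.37, limma adjusted p = 0.9998) and -1.06 ± 0.34 (95% interval -1.76 to -0.35, limma adjusted p = 0.365). For PPBo the call depended on which arrays set the spread: the same change of -1.06 had an adjusted p of 0.000296 when only replicates 4 and 5 were fitted.

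Beside PEO-IAA, 1 µM IAA gave GH3.5 signals of 1488, 1089.9 and 947, all above both the mock and the PEO-IAA arrays and all below the arrays with IAA alone. Beside PPBo the signals were 2040.5 and 2391, which overlap the 2 arrays with 100 nM IAA. The increase over the inhibitor alone was 2.95 ± 0.27 with PEO-IAA (limma adjusted p = 2.48e-06) and 3.37 ± 0.34 with PPBo (limma adjusted p = 2.25e-05). Over mock, GH3.5 rose by 1.44 ± 0.27 in the PEO-IAA double treatment (limma adjusted p = 0.00963) and by 2.31 ± 0.34 in that with PPBo (limma adjusted p = 0.000756). In these comparisons 1.14% and 0.98% of tested probe sets were called. The former call was lost without mock array 2 (1.39, adjusted p = 0.0605) and without array 1 of the double treatment (1.26, adjusted p = 0.0501).

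Set against 1 µM IAA alone, GH3.5 was 2.21-fold lower in mean signal with PEO-IAA added, a log2 change of -1.11 ± 0.27 (95% interval -1.69 to -0.54, limma adjusted p = 0.109) that was not called; 0.371% of probe sets were. Without the third 1 µM IAA array, whose GH3.5 signal was the lowest of its group, the change was -1.40 ± 0.27 and was called (adjusted p = 0.0253). It was also called at -1.11 without kynurenine array 1 (adjusted p = 0.0410). The responses to IAA beside PEO-IAA and alone differed by 0.39 ± 0.39 (95% interval -0.42 to 1.20, limma adjusted p = 0.773), and those beside PPBo and alone by 0.81 ± 0.43 (95% interval -0.10 to 1.72, limma adjusted p = 0.826). Without the third 1 µM IAA array these differences were 0.098 ± 0.36 (adjusted p = 0.973) and 0.52 ± 0.40 (adjusted p = 0.942).

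**Figure D3:**
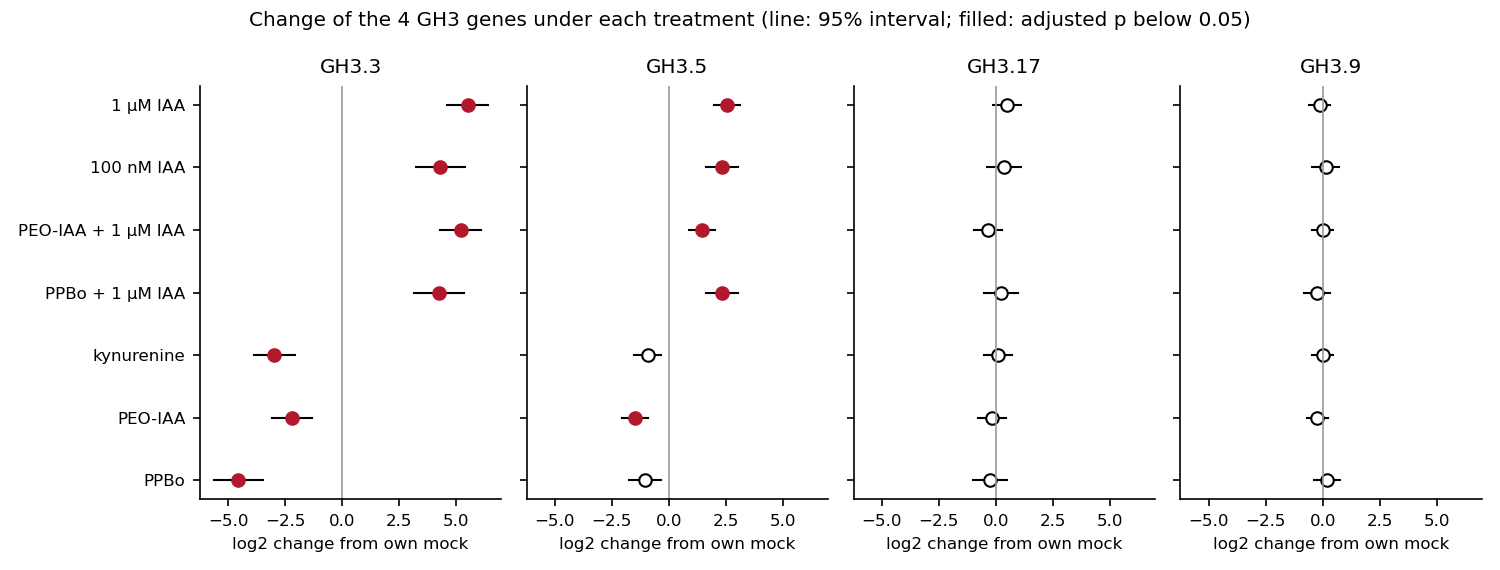
Log2 change from the mock of the same replicate numbers for each gene and treatment, with its 95% interval from limma; filled points have an adjusted p below 0.05. GH3.3 is filled in all 7 rows, from -4.56 with PPBo to 5.50 with 1 µM IAA; GH3.5 is filled in 5; GH3.17 and GH3.9 have intervals that reach across 0 in every row.

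GH3.17, an enzyme that favours glutamate as the amino acid, showed no call in any of the 15 comparisons. Its signals were 297, 428 and 438 on the mock arrays and 663, 755 and 321 with 1 µM IAA. The first 2 IAA arrays were above all 3 mock arrays, and the third fell among them. The change was 0.50 ± 0.29 on the log2 scale (95% interval -0.11 to 1.11, limma adjusted p = 0.348). Without the third array the mean with IAA was 709 ± 64.8 (SD, n = 2) in place of 579.5 ± 229 (SD, n = 3), and the change was 0.88 ± 0.26 (adjusted p = 0.114). With array quality weights, which gave the third array a weight of 0.0608 against 0.409 or more on the others, the change was 0.70 (adjusted p = 0.0215). With the replicate number as a block and without that array it was 0.98 (adjusted p = 0.000548).

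In replicates 4 and 5 GH3.17 lay at 509 and 619 with mock, 716 and 727 with 100 nM IAA, 506 and 435 with PPBo, and 646 and 686 with PPBo and 1 µM IAA. The group means rose in the order PPBo, mock, PPBo with IAA, and 100 nM IAA, with 2 arrays in each group. How many of all tested probe sets part their arrays in such an order was not counted, so it is a description. None of the log2 changes was called, at 0.36 ± 0.36 with 100 nM IAA (95% interval -0.39 to 1.11), -0.26 ± 0.36 with PPBo and 0.50 ± 0.36 for IAA added to PPBo (95% interval -0.25 to 1.25). Kynurenine gave 266, 449 and 580.5 and PEO-IAA 255, 424 and 374, both overlapping mock. The changes with these inhibitors were 0.10 ± 0.29 (95% interval -0.51 to 0.71) and -0.15 ± 0.29 (95% interval -0.76 to 0.46).

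With PEO-IAA and IAA together GH3.17 read 240.2, 370.0 and 311, all below the first 2 arrays with 1 µM IAA, while the third of those, at 321, lay among them. The change from IAA alone was -0.83 ± 0.29 (95% interval -1.44 to -0.22, limma adjusted p = 0.347). Without the third IAA array it was -1.21 ± 0.26 (adjusted p = 0.0585), and with array quality weights -1.07 (adjusted p = 0.00746).

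GH3.9, a member known for its part in primary root growth, had low and even signals, from 49.6 to 95.3 over the 23 arrays. Its mean of 66.9 lay 5.12 above the filter. The mock arrays read 75.6, 62.9 and 71.7, and those with 1 µM IAA 78.1, 49.7 and 63.9. With 100 nM IAA the signals were 64.6 and 79.7, beside 75.0 and 56.4 in mock. These groups overlapped, and the changes were -0.13 ± 0.22 (95% interval -0.60 to 0.34) and 0.13 ± 0.27 (95% interval -0.45 to 0.70). The 3 inhibitors gave changes between -0.24 and 0.19, none called. Both arrays with PPBo and 1 µM IAA, at 54.7 and 53.6, lay below their mock arrays, which is likewise a description. The change was -0.24 ± 0.27 (95% interval -0.81 to 0.34, limma adjusted p = 0.9999) and was not called. A change as large as that of GH3.5 lies outside these intervals, and a smaller one may not show at this signal.

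Over all 4 backgrounds (mock of either replicate set, PEO-IAA and PPBo, with 100 nM IAA in replicates 4 and 5 without inhibitor and 1 µM elsewhere) the mean log2 response to IAA was 6.50 ± 0.24 for GH3.3 (limma adjusted p = 1.88e-12) and 2.80 ± 0.15 for GH3.5 (limma adjusted p = 4.65e-10). That of GH3.17 was 0.29 ± 0.16 (95% interval -0.05 to 0.64, limma adjusted p = 0.499) and that of GH3.9 -0.05 ± 0.13 (95% interval -0.31 to 0.21, limma adjusted p = 0.918). Leaving out the third 1 µM IAA array gave 0.39 ± 0.14 for GH3.17 (adjusted p = 0.113). In this mean 4.92% of probe sets were called. Neighbours in that order were compared in 3 pairs by exact two-sided permutation of the IAA labels within the 4 backgrounds, over 20 arrays and 14400 arrangements. The order was known from these same arrays, so the exact p-values give no separate evidence for it. GH3.3 responded more than GH3.5 by 3.696 and GH3.5 more than GH3.17 by 2.51, each with an exact p of 0.0001389, the smallest the arrangements can give (0.0002083 adjusted over the 3 pairs). The difference of 0.35 between GH3.17 and GH3.9 had an exact p of 0.138, and was 0.44 without the third 1 µM IAA array (adjusted exact p = 0.0689). It passed the threshold when array 1 of PEO-IAA with IAA was left out (0.44, adjusted exact p = 0.0383).

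The mean change over the 3 inhibitors was -3.24 ± 0.30 for GH3.3 (limma adjusted p = 1.22e-05), -1.17 ± 0.19 for GH3.5 (limma adjusted p = 0.00492), -0.10 ± 0.21 for GH3.17 (95% interval -0.53 to 0.33) and -0.02 ± 0.16 for GH3.9 (95% interval -0.35 to 0.32). In that mean 0.565% of tested probe sets were called. GH3.3 fell the most of all 15922, and GH3.5 held place 30.

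Of the other 15 listed GH3 genes, 1 passed the filter. GH3.1, a further auxin-conjugating member, had a mean of 62.1, which is 0.298 above the filter, so it passed only through the arrays where it was high, and its values are a description with no test. It read 27.7, 26.3 and 22.7 with mock and 291, 238 and 137 with 1 µM IAA. With PEO-IAA beside IAA it read 61.8, 34.0 and 64.7, all below the arrays with IAA alone. Another 6 genes of the family had mean signals of 8.15 to 45.3, below the filter, and 8 had no probe set naming 1 gene and were not analysed here.

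The GH3 response can be set beside other routes of auxin inactivation. DAO1 and DAO2, dioxygenases that oxidise IAA, and UGT74D1, a glucosyltransferase, were the tested genes of 14 listed. None was called with 1 µM IAA, 100 nM IAA or any inhibitor. Of all tested probe sets, 2.24% were called with 1 µM IAA and 0.358% with 100 nM IAA. The shares were 0.0126% with kynurenine, 0.659% with PEO-IAA and 0.364% with PPBo. At such shares, the lack of a call does not set these genes apart from most probe sets. DAO2 changed by -0.87 ± 0.40 with 1 µM IAA (limma adjusted p = 0.265). It fell by 0.80 ± 0.23 in the mean over the 4 backgrounds (limma adjusted p = 0.0470), where 4.92% of probe sets were called. DAO1 changed by 0.17 ± 0.19 and UGT74D1 by -0.40 ± 0.18 with 1 µM IAA, neither called. YUC2, the tested one of 11 listed auxin synthesis genes, was called in none of the comparisons with mock. No listed receptor or ARF gene had a probe set naming 1 gene.

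Early auxin response genes gave a further comparison, with 4 tested of 10 listed. LBD29, a transcription factor of lateral root initiation, and IAA29, an Aux/IAA repressor, had median signals of 38.5 and 47.4, under the filter of 61.8, and passed it through arrays with IAA. Their log2 changes with 1 µM IAA, 4.20 and 3.25, are therefore a description, as are those of 3.46 and 1.12 with 100 nM IAA, 3.388 and 0.53 with PPBo and IAA over mock, and -1.20 and -1.48 with PPBo. HAT2, an auxin-induced homeodomain factor, rose by 2.40 ± 0.18 with 1 µM IAA (limma adjusted p = 1.85e-07), and LBD16, of the same family as LBD29, by 1.35 ± 0.34 (limma adjusted p = 0.0368), where 2.24% of probe sets were called. With 100 nM IAA, HAT2 changed by 0.97 ± 0.22 (limma adjusted p = 0.0734) and LBD16 by 0.30 ± 0.41 (limma adjusted p = 0.9999), neither called. Whether these responses differ from those of GH3.3 and GH3.5 was not tested. With PPBo and IAA over mock, HAT2 was at 0.38 ± 0.22 and LBD16 at 0.26 ± 0.41, also not called. HAT2 fell with PPBo, with a change of -1.60 ± 0.22 (limma adjusted p = 0.00132; 0.364% of probe sets were called), and was at -0.77 ± 0.18 with kynurenine (limma adjusted p = 0.716) and -0.60 ± 0.18 with PEO-IAA (limma adjusted p = 0.242).

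The genes whose pattern was most like that of each member were taken from 8711 other probe sets naming 1 gene, by Pearson's r over the 23 arrays of the log2 change from the own mock. The arrays of a group share their treatment, so r describes the grouping of treatments. For GH3.3 they were LBD29 (r = 0.950), AT5G62280 (0.944), BRH1 (0.943), HAT2 (0.940) and GH3.5 (0.937). For GH3.5 they were AT1G62770 (0.954), LBD29 (0.954), GH3.3 (0.937), AT1G64405 (0.932) and GH3.1 (0.921). Without the third 1 µM IAA array, LBD29 came first for both, with r = 0.946 for GH3.3 and 0.952 for GH3.5. LBD29 and GH3.1 passed the filter through arrays with IAA, which favours such a match, so their places are a description. GH3.17 was closest to AT1G18460 (0.793), AT3G12290 (0.766) and AT1G73920 (0.749), and GH3.9 to AT1G33080 (0.735), AT1G06960 (0.706) and AT5G67350 (0.642). Between members, r was 0.338 for GH3.3 with GH3.17 and 0.467 for GH3.5 with GH3.17, and lay between -0.11 and -0.02 for GH3.9 with each of the others.

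**Figure D4:**
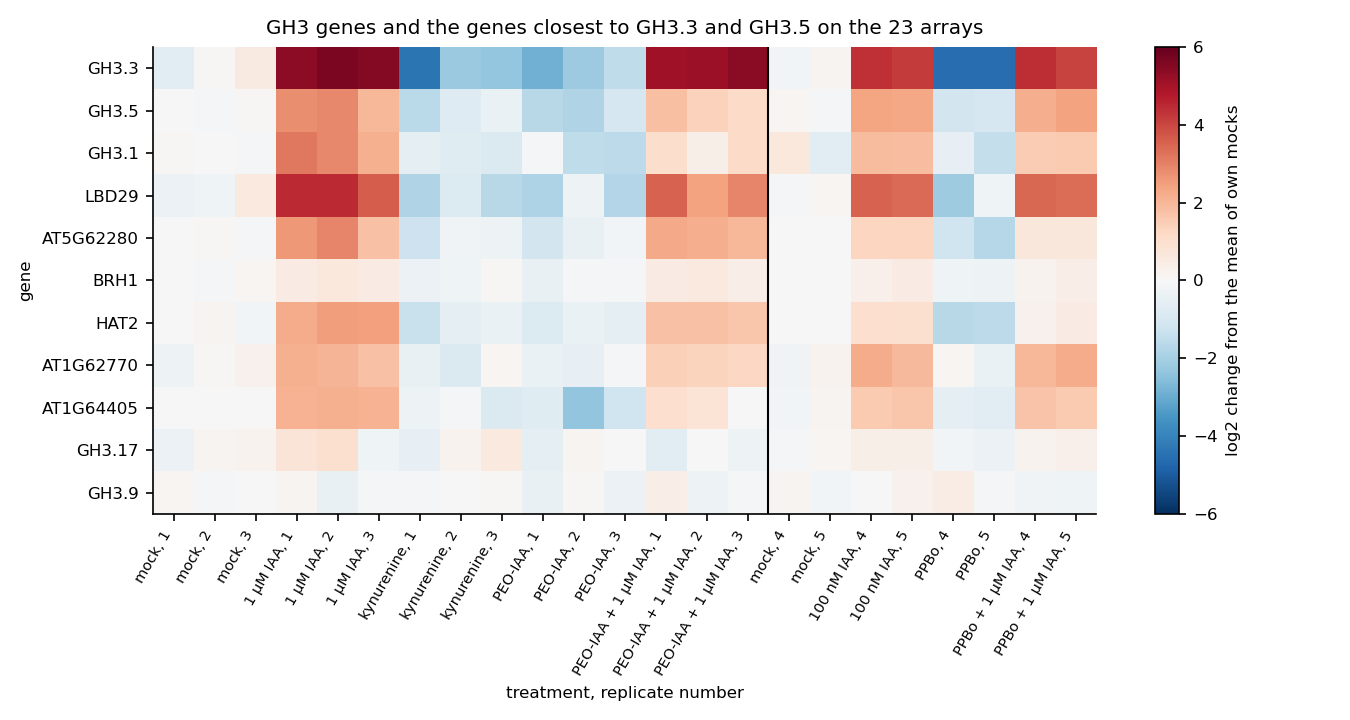
Log2 change from the mean of the own mocks on each of the 23 arrays for the GH3 genes and the genes most like GH3.3 and GH3.5; red is higher, blue lower, and the black line parts replicates 1 to 3 from 4 and 5. GH3.3, GH3.5 and LBD29 are red on every array with IAA, while GH3.9 stays near 0 throughout.

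Among markers of tissue, 3 of 7 listed root genes had a named probe set, and PYK10, a root glucosidase, read 12826 to 22086 on all arrays. Of the expansins of root hairs, which were lower with PEO-IAA, EXPA7 fell by 2.11 ± 0.39 (limma adjusted p = 0.00880) and EXPA18 by 1.71 ± 0.22 (limma adjusted p = 0.000283), while PYK10 changed by 0.00 ± 0.13. Their summed signal was 62.2 to 141 with PEO-IAA, 173 to 391 with PEO-IAA and IAA, 319 to 437 in mock and 300 to 431 with kynurenine. In replicates 4 and 5 it was 569.9 to 589 in mock, 378 to 389 with PPBo, 393 to 419.6 with 100 nM IAA and 228 to 286 with PPBo and IAA, where EXPA18 fell by 1.18 ± 0.28 (limma adjusted p = 0.0441). With PPBo alone neither expansin was called (-0.86 ± 0.48 and -0.48 ± 0.28). With 1 µM IAA the sum was 258 to 276, below mock, and PYK10 changed by 0.15 ± 0.13. Neither expansin was called there (EXPA7 -0.35 ± 0.39, EXPA18 -0.61 ± 0.22). With all 3 root markers the sum was 14335 to 17548 with PEO-IAA and 15399 to 17429 in mock. Most of that sum is PYK10, so it adds little to the PYK10 values. The part of these cells in the GH3 changes was not tested. None of 6 listed shoot markers had a probe set naming 1 gene.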

How the data were processed

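RNA of 23 seedling samples was hybridised to 1-colour ATH1 arrays, 1 sample per array, in 9 groups taken from the sample titles. The deposited intensity values are MAS5 probe set signals, per the submitters' processing notes, which give no version; the 2% trimmed mean of each array is 500.04 to 500.05, so they were not scaled again. Detection calls were not used here, so low signals are the least certain, and precision is limited by how many arrays each group has.

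The 64 control probe sets among 22810 were left out. Signals were taken to log2(signal + 7.56), where 7.56 is the 10th percentile of all values. Probe sets with a mean above the 30th percentile, 61.8, were tested with limma 3.58.1 (R 4.3.3; trended eBayes, 9 group means, 14 residual degrees of freedom), checked on simulated data. The Benjamini-Hochberg adjustment was made separately for 15 contrasts. Names came from the platform annotation and a RefSeq gene table.

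All 4 members are named in each comparison; from each gene list, called members and up to 3 others of highest signal may be named. The members and lists were chosen with earlier results of these data known. Alternatives were another pseudocount, filter, normalization, prior, array weights, fewer arrays, a replicate block and each array left out.

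Same-numbered arrays of mock, kynurenine, PEO-IAA and PEO-IAA with IAA deviated together (r of their deviations from the group means 0.303 to 0.635), so those numbers pair the samples. The labels do not say what a number marks. Pairs with 1 µM IAA (-0.140 to 0.032) and the 2 pairs of each comparison in replicates 4 and 5 were not taken as paired. The third 1 µM IAA array enters the mean of its group, and with it every deviation there. These r values therefore cannot show that the 1 µM IAA arrays are unpaired.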

Additional observations from a re-analysis of the deposited data

How the results depend on the processing

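The increases of GH3.3 and GH3.5 with 1 µM IAA, and beside PEO-IAA and PPBo over the inhibitor alone, kept their direction and call under every alternative run, as did both mean responses and the fall of GH3.3 with PPBo. With only the arrays of the replicate set, GH3.3 was not called with kynurenine (-2.97, adjusted p = 0.163) or PEO-IAA (-2.19, 0.0814), nor GH3.5 with PEO-IAA (-1.50, 0.0617) or PEO-IAA with IAA (1.44, 0.0599), while GH3.5 was with PPBo (-1.06, 0.000296). With only the groups compared, GH3.3 was not called with kynurenine (-2.97, 0.9998) or PEO-IAA (-2.19, 0.0763), and GH3.5 was with PPBo (-1.06, 0.00317). Array quality weights brought calls for GH3.17 with 1 µM IAA (0.70), against IAA alone with PEO-IAA added (-1.07) and in the mean IAA response (0.34, 0.0257), for GH3.5 with PPBo (-1.06, 0.0106) and with PEO-IAA added to IAA (-1.41, 0.00120), and for GH3.3 in the PPBo difference (3.51). They turned the sign of uncalled GH3.9 changes with 1 µM IAA (0.0325), kynurenine (0.0722), PEO-IAA added to IAA (-0.0765) and the mean inhibitor response (0.0398). So did quantile normalization for GH3.9 with kynurenine (0.0006) and the larger pseudocount for GH3.9 with PEO-IAA and IAA (0.00); the smaller one did so for GH3.1 in the PPBo difference (0.14).

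The replicate block changed 1 call of the 4 members, GH3.3 in the PPBo difference (3.301, adjusted p = 0.0247), and no call in the paired comparisons. It took the probe sets called with 1 µM IAA from 356 to 930 and those with PEO-IAA added to IAA from 59 to 122. Neither comparison was taken as paired, since pairing could not be shown for the 1 µM IAA arrays. The block without the third 1 µM IAA array gave 1775 with 1 µM IAA, and calls for GH3.17 with 1 µM IAA (0.98), with PEO-IAA added to IAA (-1.31), in the PEO-IAA difference (-1.16) and in the mean IAA response (0.41), for GH3.5 with PEO-IAA added to IAA (-1.50) and for GH3.3 in the PPBo difference (3.04); GH3.5 in the PEO-IAA difference became -0.0010. Across alternatives, called probe sets ranged from 69 to 1775 with 1 µM IAA, 0 to 10 with kynurenine, 55 to 320 with PEO-IAA, 12 to 494 with 100 nM IAA and 17 to 373 with PPBo. For PEO-IAA with IAA they ranged from 51 to 628 over mock, 97 to 552 over PEO-IAA and 0 to 398 against IAA alone, and for PPBo with IAA from 63 to 655 over mock and 50 to 404 over PPBo. The PEO-IAA difference had 1 to 228, the dose difference 0 to 21, the PPBo difference 0 to 66, the mean IAA response 485 to 1787 and the mean inhibitor response 41 to 351.

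Leaving out 1 array at a time gave ranges of -3.34 to -2.26 for GH3.3 with kynurenine, -2.53 to -1.85 with PEO-IAA and 3.03 to 3.61 in the PPBo difference. GH3.5 ranged from -1.75 to -1.34 with PEO-IAA, 1.26 to 1.59 with PEO-IAA and IAA, -1.40 to -0.94 with PEO-IAA added to IAA and 2.23 to 2.45 with 100 nM IAA. GH3.17 minus GH3.9 ranged from 0.25 to 0.44. Uncalled changes that turned sign were, for GH3.9, 1 µM IAA (-0.28 to 0.0155), kynurenine (-0.0721 to 0.0605), PEO-IAA with IAA (-0.21 to 0.15), PEO-IAA added to IAA (-0.0794 to 0.29), 100 nM IAA (-0.0567 to 0.31), PPBo (-0.0528 to 0.43), the mean IAA response (-0.11 to 0.0096) and the mean inhibitor response (-0.0974 to 0.0639). For GH3.17 they were kynurenine (-0.14 to 0.41), PEO-IAA (-0.33 to 0.0580), the dose difference (-0.0904 to 0.52), the PPBo difference (-0.38 to 0.23) and the mean inhibitor response (-0.22 to 0.0013), and for GH3.1 the PPBo difference (-0.69 to 0.25). The causes were not tested. GH3.9 was not tested under the stricter filter, where its mean lies below the 50th percentile.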
